A study of Mus musculus with 8 samples.

Results

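The immediate early transcription factors are genes that cells switch on within minutes of a stimulus, without first making new protein. The 9 factors described here were taken as a named list and matched by Ensembl identifier: the AP-1 subunits Fos, Fosb, Jun, Junb and Jund, the zinc finger factor Egr1, the stress factor Atf3, the regulator Ier2 and the orphan nuclear receptor Nr4a1. All 9 were among the 31053 genes of the count table, and 7 had enough counts to be tested. They were read in brown adipose tissue (BAT), the heat-producing fat of rodents, from 4 wild type (WT) and 4 db/db mice, all 8 weeks old. All libraries were labelled with the strain C57BL6/J. By the study's methods the mice were males on normal diet and their tissue was taken after a fast. The db/db mice, named B6.BKS(D)-Leprdb/J in the methods, carry a mutated leptin receptor gene in every cell, overeat and become obese. Whether the stock number in the study's resource list names the same strain was not checked. If it names another background strain, genotype and strain cannot be told apart. The study names the supplier of the WT mice in conflicting ways, and if it was not that of the db/db mice, genotype and supplier cannot be told apart.

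These genes are wired to signalling. Kinases of the MAPK families and cAMP-dependent kinase act on factors that already sit at their promoters, such as SRF with its ELK partners and CREB, and the transcripts are short-lived, so that their level at harvest follows the minutes before it. FOS, JUN and ATF proteins pair through leucine zippers into the AP-1 complex, EGR1 binds GC-rich sites, and NR4A receptors bind DNA without a known hormone. In brown fat, noradrenaline released by sympathetic nerves acts through cAMP and is known to induce several of them, Nr4a1 among them. Handling, anaesthesia and tissue dissociation are also known to induce this class of genes.

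Jund was 2.20-fold higher in db/db than in WT, with no overlap between the genotypes. For Fos, Fosb, Junb, Egr1 and Ier2, the genotype means of log2 level differed by less than the SD between mice of the same genotype. Atf3 was higher in db/db and Nr4a1 lower by edgeR's quasi-likelihood test, but neither call held with DESeq2 or limma-voom. Jun, Junb, Egr1 and Ier2 did not pass the test, and Fos and Fosb were too low to enter it. Thus 2 factors were called higher and 1 lower of the 7 tested, at a background of 27.7% of all 9264 genes tested called (15.8% higher and 11.9% lower in db/db).

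Libraries held 2374079 to 2615009 counts in WT and 2382722 to 3240074 in db/db. Levels are CPM, counts scaled to a common library size, after TMM scaling, and 3 counts, taken as the detection floor, correspond to 0.902 to 1.33 CPM. The labels name both brown adipose tissue and stromal vascular fraction, the cells left when fat cells are removed. The adipocyte markers were abundant in every library, with a summed level of 13717 to 21177 CPM, so whole tissue is what the transcripts resemble. The db/db libraries also held more macrophage transcripts (sum of 8 markers 731 to 1286 CPM against 154 to 202 in WT), more skeletal muscle transcripts (8 markers, 1757 to 8890 against 335 to 1185) and more fibroblast transcripts (5 markers, 995 to 2051 against 483 to 609), and all of these markers passed the test. Smooth muscle and pericyte markers (4 genes, summed) were at 302 to 402 CPM in db/db and 177 to 222 in WT, with 2 of 3 tested called higher. The sum of 5 endothelial markers was 192 to 224 CPM in db/db and 258 to 306 in WT. In bulk tissue, a change in the number of cells of a type and a change in RNA per cell cannot be told apart, and the part of these cell types in the results below was not tested. Lepr had 0 counts in every library, so the targeted gene checks no label here.

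The sequences shown are the 250 bases before the RefSeq start site (GRCm38.p6) of Fos, Junb, Atf3 and Nr4a1, shown because each held a motif searched for, as did Fosb, and because the calls of Atf3 and Nr4a1 differed between tools. They are printed 5′ to 3′ on the strand of the gene. Capitals mark TGACG, the shorter form of the cAMP response element, and GCGNGGGCG, the EGR site, searched on both strands. RefSeq windows were matched for 7 of the 9 factors, and Egr1 and Ier2 were not matched.
Fos, chr12:85473640-85473889, plus strand: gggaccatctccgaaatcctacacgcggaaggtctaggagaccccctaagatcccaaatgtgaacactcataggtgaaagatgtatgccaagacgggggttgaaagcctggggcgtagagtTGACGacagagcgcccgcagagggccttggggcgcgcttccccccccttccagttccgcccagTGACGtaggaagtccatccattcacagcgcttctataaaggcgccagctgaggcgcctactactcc
Junb, chr8:84978749-84978998, minus strand: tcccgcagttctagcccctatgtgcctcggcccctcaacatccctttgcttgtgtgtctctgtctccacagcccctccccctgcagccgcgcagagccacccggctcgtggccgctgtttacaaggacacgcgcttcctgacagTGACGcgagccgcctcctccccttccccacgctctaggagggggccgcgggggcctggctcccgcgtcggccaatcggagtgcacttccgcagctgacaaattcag
Atf3, chr1:191183334-191183583, minus strand: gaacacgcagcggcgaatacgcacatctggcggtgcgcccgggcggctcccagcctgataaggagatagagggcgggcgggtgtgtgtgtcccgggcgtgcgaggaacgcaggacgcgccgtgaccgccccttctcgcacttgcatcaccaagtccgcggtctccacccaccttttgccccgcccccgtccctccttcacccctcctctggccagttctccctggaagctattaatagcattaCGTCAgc
Nr4a1, chr15:101266596-101266845, plus strand: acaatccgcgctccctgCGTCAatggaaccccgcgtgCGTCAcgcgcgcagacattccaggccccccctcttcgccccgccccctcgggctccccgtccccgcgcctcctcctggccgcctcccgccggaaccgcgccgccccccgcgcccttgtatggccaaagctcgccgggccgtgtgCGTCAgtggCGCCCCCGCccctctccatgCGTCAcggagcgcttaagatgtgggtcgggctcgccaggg

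Nr4a1 held 4 copies of TGACG, at positions -233, -213, -69 and -40 from its start site, and 1 EGR site at -60. Fos held 2 copies of TGACG, at -129 and -66, while Junb held 1 at -106 and Atf3 1 at -7. The windows of Jun and of Jund, the factor called under every alternative, held 0 copies of TGACG and 0 EGR sites, but the RefSeq start of Jund lies 1210 bases before the GENCODE start, so its window does not reach the gene as given below. Of 32851 windows of the same length, 17.8% held TGACG and 4.70% held the EGR site. The full element TGACGTCA (1.55% of windows), the AP-1 site TGANTCA (6.75%) and the CArG box bound by SRF (1.47%) were found in none of the 7 matched windows. TGACG lies inside TGACGTCA, so those motifs overlap. Such matches are letters in a window and not measured sites. The start sites of Nr4a1 and Atf3 in RefSeq lie 12577 and 34706 bases inside the outermost GENCODE start, so these windows do not cover the outermost start.

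**Figure D1:**
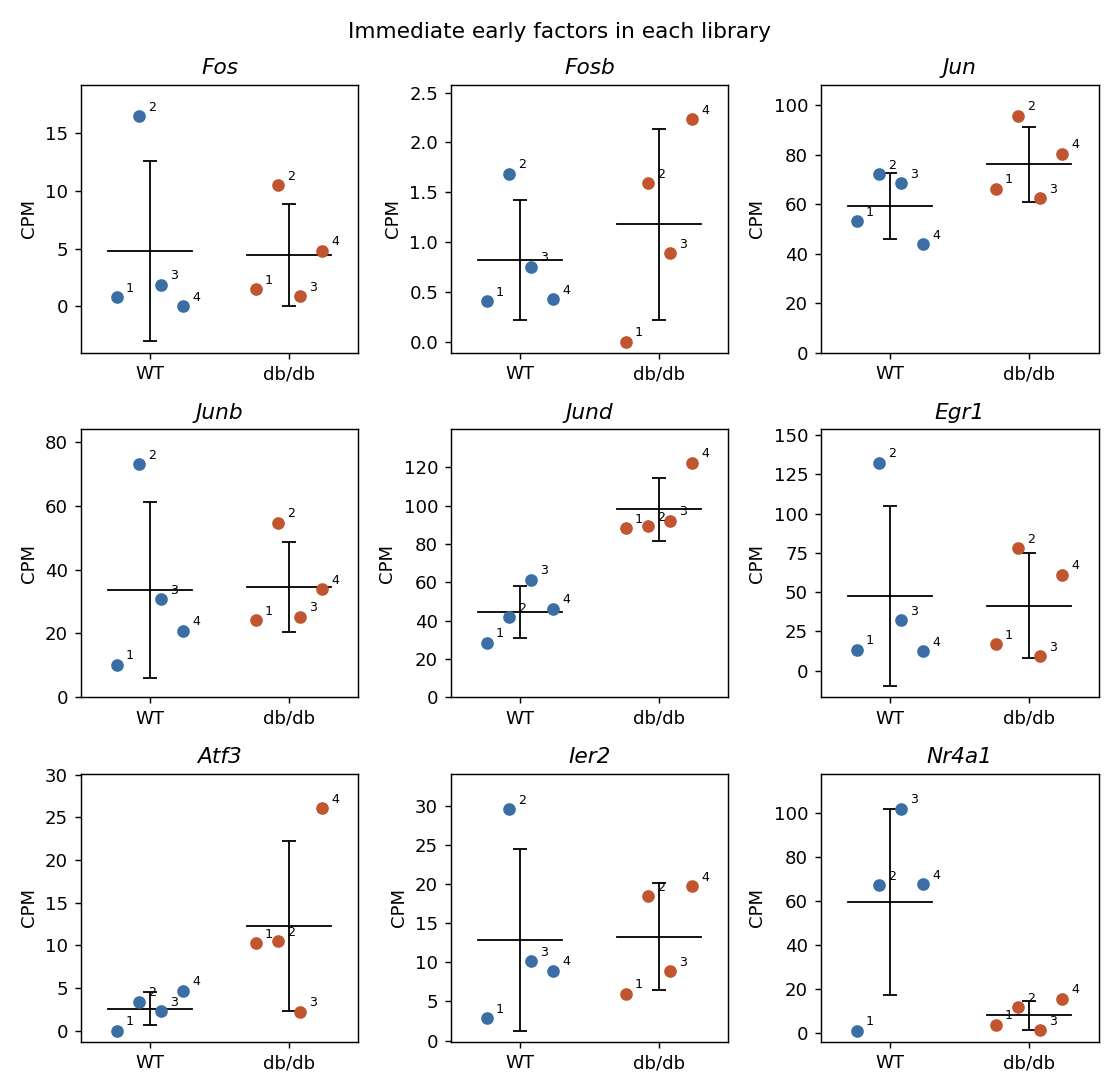
CPM (linear axes) of the 9 immediate early factors in each library, with WT in blue and db/db in orange, digits giving the replicate number, horizontal lines the mean and bars the SD of 4 libraries. Jund is the factor whose genotypes do not overlap (28.3 to 61.2 CPM in WT, 88.1 to 122 in db/db), and WT replicate 2 stands far above the other WT libraries for Fos, Egr1, Junb and Ier2.

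Jund (ENSMUSG00000071076, chr8:70698949-70700616 on mm10, plus strand) encodes the JUN subunit that most tissues make at rest and that is the least inducible of the family. Its levels were 28.3, 41.8, 61.2 and 46.3 CPM in WT replicates 1 to 4, and 88.1, 89.4, 92.2 and 122 CPM in db/db replicates 1 to 4. Every db/db library lay above every WT library, which was the case for 15.3% of all genes tested. The fitted log2 fold change was 1.14 ± 0.20 (SE, n = 4 and 4, 95% interval 0.73 to 1.55; edgeR adjusted p = 2.84e-04), and the exact two-sided permutation p was 0.0286, the smallest that 4 against 4 samples can give. Jund passed the test under all 19 alternatives computed, with log2 fold changes of 0.91 to 1.32. Its spread was ordinary: the biological coefficient of variation (BCV), edgeR's estimate of the spread between mice beyond counting error, was 19.2% against a median of 20.1% over all genes tested. The gene shares exon sequence with Gm11175 on the other strand, which had 0 counts in every library.

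Jun (ENSMUSG00000052684, chr4:95049034-95052222, minus strand), the inducible founding member of the family, had 53.0, 72.2, 68.4 and 43.7 CPM in WT and 66.2, 95.8, 62.5 and 80.4 CPM in db/db. The ranges overlapped, with db/db replicates 2 and 4 above all WT libraries. The log2 fold change was 0.36 ± 0.18 (95% interval -0.02 to 0.74; edgeR adjusted p = 0.148). Junb (ENSMUSG00000052837, chr8:84974484-84978718, minus strand), a JUN protein that often opposes JUN in growth control, had 10.1, 73.0, 30.8 and 20.8 CPM in WT and 24.1, 54.7, 25.3 and 33.9 CPM in db/db. Here the db/db values all fell within the WT range, and WT replicates 1 and 2 set both ends of it. Its log2 fold change was 0.04 ± 0.40 (95% interval -0.81 to 0.89; edgeR adjusted p = 0.952), an interval that leaves room for changes near 1 on the log2 scale in the upward and downward sense. Without WT replicate 2 it was 0.73 (edgeR adjusted p = 0.131), and without WT replicate 1 or db/db replicate 2 it was -0.28. The sources do not say if reads were counted by strand, and Jun and Junb share exon sequence with Junos (0 to 5 counts) and Prdx2 (605 to 818 counts), so the values of Junb in particular are uncertain.

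The ratio of Jund to Jun counts was computed after these values were seen. It was 0.534, 0.579, 0.896 and 1.058 in WT and 1.33, 0.934, 1.48 and 1.52 in db/db. The ratio was higher in db/db apart from db/db replicate 2, which lay below WT replicate 4 (exact permutation p = 0.0571, 0.114 after adjustment over 2 ratios). The ratio of Jund to Junb gave an exact permutation p of 0.20. A change of Jund relative to the other JUN genes was thus not established at this sample size, although Jund alone passed the test.

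Fos and Fosb were scarce. Fos (ENSMUSG00000021250, chr12:85473890-85477273, plus strand), whose protein has to pair with a JUN protein to bind DNA, had 2, 39, 5 and 0 counts in WT and 5, 33, 2 and 13 in db/db, or 0.809, 16.5, 1.88 and 0 CPM against 1.504, 10.5, 0.887 and 4.84 CPM. Replicate 2 was the highest library in either genotype, and the other WT libraries were near or under the detection floor. Fosb (ENSMUSG00000003545, chr7:19302696-19310051, minus strand), its close relative that accumulates on repeated stimulation, had 1, 4, 2 and 1 counts in WT and 0, 5, 2 and 6 in db/db. Neither gene passed the count filter. The exact two-sided permutation p on log2 CPM was 0.686 for Fos and 0.714 for Fosb, so a difference was not detected. For Fos the spread between mice exceeded counting error, with a coefficient of variation of CPM in WT of 163% where counting alone gives 29.5%.

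Egr1 (ENSMUSG00000038418, chromosome 18), a zinc finger factor induced through SRF and ELK proteins, had 13.4, 133, 31.9 and 12.3 CPM in WT and 16.9, 77.9, 9.31 and 61.0 CPM in db/db. WT replicate 2 was the highest of all libraries, db/db replicates 2 and 4 came next, and the highest WT level was 10.8 times the lowest. The log2 fold change was -0.19 ± 0.63 (95% interval -1.51 to 1.13; edgeR adjusted p = 0.860). Its sign rested on single libraries: without WT replicate 2 the log2 fold change was 1.09 (edgeR adjusted p = 0.158), without db/db replicate 1 it was 0.09 and without db/db replicate 3 it was 0.12, while without db/db replicate 2 it was -0.70. Ier2 (ENSMUSG00000053560, chr8:84661331-84662852, minus strand), a short nuclear protein of the early growth response, had 2.83, 29.5, 10.1 and 8.91 CPM in WT and 6.02, 18.5, 8.87 and 19.7 CPM in db/db. All db/db values lay inside the WT range. Its log2 fold change was 0.05 ± 0.49 (95% interval -0.98 to 1.08; edgeR adjusted p = 0.951). Leaving out single libraries moved it from -0.30 (without WT replicate 1) to 0.84 (without WT replicate 2), and it did not pass the test in any of these fits. For both genes the 95% interval leaves room for changes of about 1 on the log2 scale in the upward and downward sense, and for Egr1 down to -1.51.

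Atf3 (ENSMUSG00000026628, chr1:191170296-191218039, minus strand) encodes a stress-induced factor of the ATF family that pairs with JUN proteins and mostly represses. It had 0, 8, 6 and 11 counts in WT and 34, 33, 5 and 70 in db/db, or 0, 3.38, 2.25 and 4.67 CPM against 10.2, 10.5, 2.22 and 26.0 CPM. It passed the count filter through db/db replicates 1, 2 and 4 and WT replicate 4. Of the db/db libraries 3 lay above all WT libraries, and db/db replicate 3 lay within them. The log2 fold change was 2.25 ± 0.64 (95% interval 0.91 to 3.60; edgeR adjusted p = 0.0136), and the exact two-sided permutation p was 0.114. The call rested on db/db replicate 4: without it the log2 fold change was 1.60 and the edgeR adjusted p 0.0760. It was also lost with DESeq2 (log2 fold change 2.22, adjusted p = 0.0994), with limma-voom (2.52, adjusted p = 0.0636) and with the skeletal muscle level as a covariate (2.71 ± 0.86, edgeR adjusted p = 0.0689). The muscle level did not overlap between the genotypes, so that fit cannot separate it from genotype. With the red cell level as a covariate, described below, the estimate was 1.13 (edgeR adjusted p = 0.224).

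Nr4a1 (ENSMUSG00000023034, chr15:101254269-101274795, plus strand) encodes NUR77, an orphan receptor that cAMP signalling induces in fat and muscle. It had 1.21, 67.1, 102 and 67.5 CPM in WT and 3.91, 11.8, 1.33 and 15.6 CPM in db/db. WT replicates 2 to 4 were far above every db/db library, whereas WT replicate 1, with 3 counts, was the lowest of all. The log2 fold change was -2.84 ± 0.68 (95% interval -4.27 to -1.41; edgeR adjusted p = 0.00439), but the exact two-sided permutation p was 0.229. Without WT replicate 1 the log2 fold change was -3.26 and the edgeR adjusted p 3.28e-05. The call was lost with DESeq2 (log2 fold change -2.89, adjusted p = 0.0514), limma-voom (-2.20, adjusted p = 0.252) and the skeletal muscle level as a covariate (-2.70 ± 1.01, edgeR adjusted p = 0.133). The SD of log2 CPM within genotypes was 2.12, the largest of all 9264 genes tested, whose median was 0.31.

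**Figure D2:**
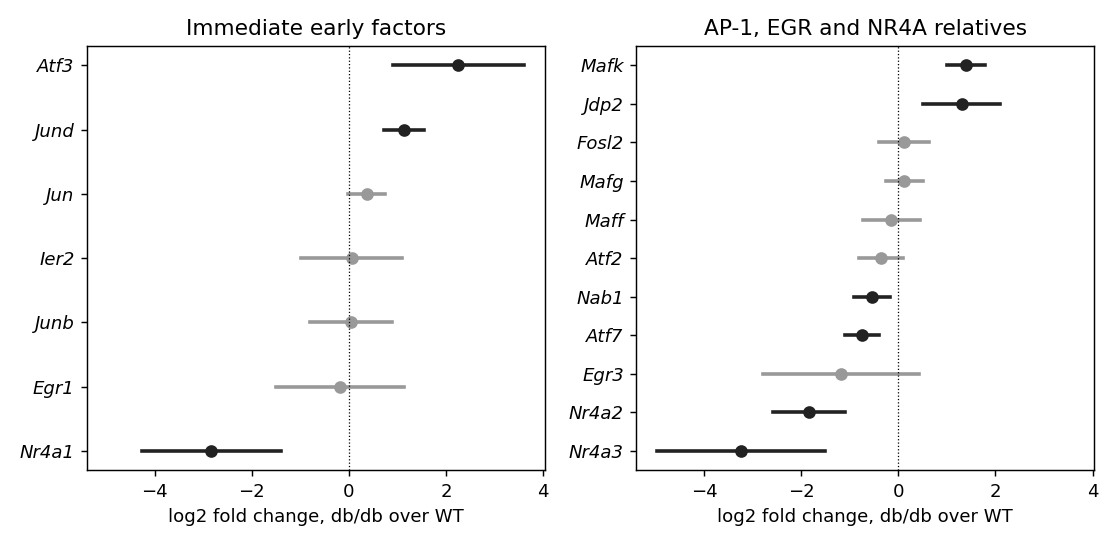
Log2 fold change of db/db over WT (points) with 95% intervals (lines) for the 7 tested immediate early factors and the 11 tested AP-1, EGR and NR4A relatives. Black marks an edgeR adjusted p under 0.05 and grey all others; Jund has a narrow interval of 0.73 to 1.55, while those of Nr4a1 (-4.27 to -1.41) and Egr1 (-1.51 to 1.13) are wide.

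Per kilobase of exon, Jund was the most abundant factor in both genotypes, at 26.6 ± 8.14 CPM per kb (SD, n = 4) for WT and 58.8 ± 9.79 for db/db. In WT it was followed by Jun at 18.6, Nr4a1 at 16.9, Junb at 14.6, Egr1 at 10.6 and Ier2 at 8.45 CPM per kb, with Fos at 2.04, Atf3 at 1.20 and Fosb at 0.131. Every pair of neighbours in this order overlapped over the 4 WT libraries. In db/db the order was Jund, Jun at 23.9, Junb at 14.98, Egr1 at 9.21, Ier2 at 8.71, Atf3 at 5.69, Nr4a1 at 2.33, Fos at 1.88 and Fosb at 0.189 CPM per kb. There Jund stood clear of Jun and Fos of Fosb, and all other neighbours overlapped. Nr4a1 was the third in the WT order and the seventh in that of db/db. If the libraries carry reads from transcript ends only, which the sources used here do not state, division by length would distort this order. Without that division the WT means were 59.4 CPM for Nr4a1, 59.3 for Jun, 47.5 for Egr1 and 44.4 for Jund. In db/db Jund was still ahead of Jun, at 98.0 against 76.2 CPM.

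The spread between mice of a genotype was wide for most of the factors. By the median it was also wide for the EGR and NR4A relatives, but not for the other AP-1 genes. Of the 7 tested factors, 5 had a BCV above that of 97% of all genes tested: 67.0% for Nr4a1, 61.1% for Egr1, 52.4% for Atf3, 45.9% for Ier2 and 39.4% for Junb. Jun, at 18.1%, and Jund, at 19.2%, lay below the median of 20.1%. Counting error was the smaller part for the abundant genes. For Egr1 in WT the coefficient of variation of CPM was 121%, where counting alone gives 9.31%. The median BCV was 45.9% for the 7 tested factors, 48.1% for the 4 tested EGR and NR4A relatives, 28.9% for other primary response genes and 19.2% for the other AP-1 genes.

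**Figure D3:**
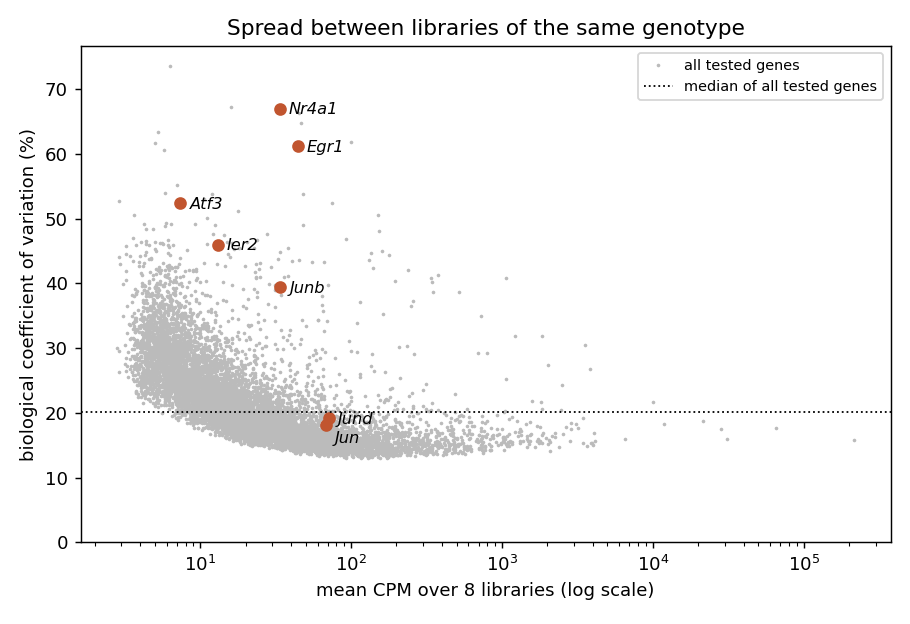
Biological coefficient of variation (percent) against mean CPM over 8 libraries (log axis) for all 9264 genes tested (grey) and the 7 tested immediate early factors (orange), with the median of all genes dotted. Nr4a1, Egr1, Atf3, Ier2 and Junb lie above most genes of like level, while Jun and Jund lie below the median of 20.1%.

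The spread followed the libraries. WT replicate 2 had the highest WT level of 6 of the 9 factors and WT replicate 1 the lowest of 6. In db/db, replicates 2 and 4 held the highest level of all 9 factors (4 and 5) and replicates 1 and 3 the lowest (4 and 5). Averaged over the 7 tested factors, the deviation of log2 CPM from the genotype mean was -1.49, 1.02, 0.44 and 0.03 in WT replicates 1 to 4 and -0.40, 0.57, -0.87 and 0.70 in db/db replicates 1 to 4. Among the 21 pairs of tested factors, 9 had deviations that correlated at r of 0.7 or more over the 8 libraries. The closest were Junb with Ier2 (r = 0.94), Jun with Egr1 (0.90), Atf3 with Nr4a1 (0.87), Junb with Egr1 (0.86) and Egr1 with Ier2 (0.85), and the loosest was Jun with Jund (0.27). These are descriptions of 8 shared libraries, in which depth and cell makeup are shared by all genes.

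**Figure D4:**
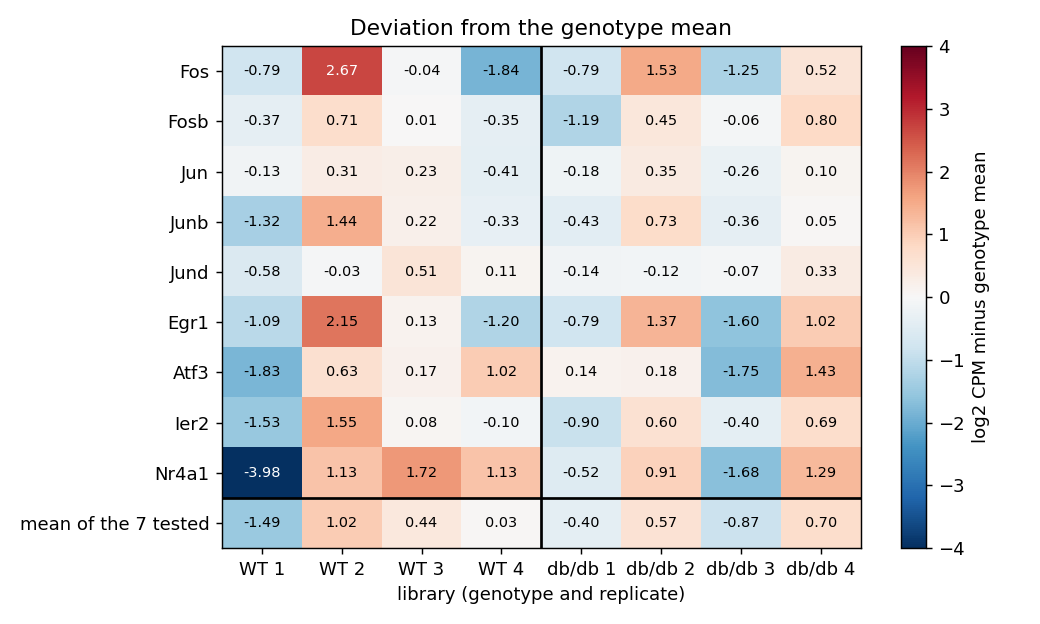
Deviation of log2 CPM (prior count 2) from the mean of the genotype for each of the 9 factors (rows) and 8 libraries (columns), with the mean of the 7 tested factors in the last row and red for above the mean. WT replicate 2 (mean 1.02) and db/db replicates 2 and 4 (0.57 and 0.70) are raised for most factors, while WT replicate 1 (-1.49) and db/db replicate 3 (-0.87) are lowered.

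Some other measures moved with these library levels. Red cell and neutrophil markers (4 genes, summed) were at 2259, 6317, 3332 and 3779 CPM in WT replicates 1 to 4 and 5035, 5096, 4712 and 12541 CPM in db/db replicates 1 to 4, so that the libraries lowest and highest in the factors were also the lowest and highest in these markers within each genotype. With the red cell level as a covariate, a fit added after seeing the data, Jund kept its call (log2 fold change 0.91; edgeR adjusted p = 0.00826) and Nr4a1 too (-3.82; edgeR adjusted p = 0.00207), while Atf3 lost it. Skeletal muscle markers stood at 8890 and 4048 CPM in db/db replicates 1 and 3, where the factors were low, and at 2447 and 1757 in replicates 2 and 4, where they were high. WT replicate 1, the lowest WT library in the factors, was in contrast the lowest in muscle markers (335 CPM). The part of blood or muscle in the spread was not tested further. The mitochondrial share of counts was 31.9% to 34.0% in WT and 30.7% to 37.6% in db/db.

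Some other rapidly induced genes went up and down with the factors from library to library. Of 28 tested primary response genes outside the list, 11 (39.3%) had deviations that correlated with the mean of the factors at r of 0.7 or more, against 4.57% of all genes tested. They included the MAPK phosphatase Dusp1 (r = 0.97), the antiproliferative Btg2 (0.91), Ier3 (0.90), Tob1 (0.88), the C/EBP factor Cebpb (0.83) and the mRNA decay factor Zfp36 (0.77). Others went the opposite way, among them Klf6 (-0.65), the antiproliferative Btg1 (-0.55), Gadd45b (-0.48) and the NF-kB inhibitor Nfkbia (-0.37), and the median r of the 28 was 0.57. Of the closest relatives, 2 of 4 EGR and NR4A genes reached r of 0.7, but 0 of 7 other AP-1 genes did, with a median r of -0.40. Dusp1 had 6.47, 40.5, 24.4 and 14.0 CPM in WT and 23.8, 58.5, 16.8 and 44.6 CPM in db/db, with the WT libraries in the order of the mean of the factors and db/db replicates 2 and 4 again above 1 and 3. Of the adipocyte, muscle, endothelial, fibroblast and smooth muscle markers none reached r of 0.7, while 1 of 8 macrophage and 2 of 4 blood markers did. The 10 genes most like the factors among 8682 compared were Cdpf1, Smad2, Dusp1, 9430038I01Rik, Urb1, Dusp19, Brd2, Tmem35b, Pim3 and Manf (r from 0.98 to 0.94). With so many genes and 8 libraries, high values of r are found by search, and the ranking is a description.

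The relatives of Nr4a1 and Egr1 were examined next. Nr4a2 (NURR1) had 17.8, 74.3, 67.6 and 84.9 CPM in WT and 9.93, 17.8, 18.2 and 23.1 CPM in db/db. WT replicate 1 again fell among the db/db libraries and the other WT libraries lay above them. Nr4a2 fell by 1.83 on the log2 scale (edgeR adjusted p = 7.34e-04), passing the test under all 19 alternatives, while the exact two-sided permutation p was 0.114. Nr4a3 (NOR1) had 4.05, 4.22, 18.0 and 11.9 CPM in WT and 0, 0, 0 and 4.09 CPM in db/db, with a log2 fold change of -3.23 (edgeR adjusted p = 0.00667). It passed the count filter through the WT libraries alone and so had to differ. The fitted value rests on the 11 counts of db/db replicate 4, without which all db/db libraries were at 0 counts and the fitted value, -7.68, is no measure of size. Its db/db values lay below those of WT but for db/db replicate 4, which lay just above WT replicate 1, and its call was lost with DESeq2 (adjusted p = 0.171) and with the muscle covariate (edgeR adjusted p = 0.333). Egr3 had a log2 fold change of -1.18 (edgeR adjusted p = 0.275) and was called under 3 of 18 alternatives. Without db/db replicate 4 it was -2.77 (edgeR adjusted p = 0.0164), and with the red cell covariate -3.29 (edgeR adjusted p = 0.00374). The EGR corepressor Nab1 fell by 0.54 (edgeR adjusted p = 0.0268). Of the 4 tested relatives 3 were called lower (background 11.9%) and 0 higher. Since Nr4a3 is among them, this count and the median log2 fold change of the list (-1.51, against 0.01 over all genes tested) are no measure of the list.

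Among the other AP-1 genes, 2 of 7 tested were called higher (background 15.8%) and 1 lower (background 11.9%), with a median log2 fold change of 0.12. Mafk, a small MAF protein that pairs with larger leucine zipper factors, had 13.5 to 16.1 CPM in WT and 31.5 to 41.7 in db/db (log2 fold change 1.39; edgeR adjusted p = 2.62e-05). Jdp2, a repressor that pairs with JUN, rose by 1.30 (edgeR adjusted p = 0.0146) and Atf7 fell by 0.75 (edgeR adjusted p = 0.00297). All 3 share exon sequence with another annotated gene and are uncertain to that extent. Fosl2, the FOS relative with the most counts, had 32.4 to 72.2 CPM in WT and 33.7 to 71.1 in db/db.

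Upstream of the factors, 2 of 21 tested kinases and transcription factors were called higher and 2 lower (19.0% called, below the background of 27.7%). The kinase Rps6ka3 (RSK2) had a log2 fold change of 0.95 and Mapk3 (ERK1) of 0.37, whereas the stress kinase Mapkapk2 (MK2) had -0.70 and the CREB relative Atf1 -0.60. The median of this list was 0.02. Of the 28 tested primary response genes, 6 were called higher and 2 lower (28.6%, near the background of 27.7%). Klf6, a zinc finger factor, had 26.3 to 33.2 CPM in WT and 87.05 to 126 in db/db (log2 fold change 1.78; edgeR adjusted p = 3.61e-07). Pim1, a survival kinase induced by cytokines, had 104 to 177 CPM in WT and 25.7 to 51.2 in db/db (-1.86; edgeR adjusted p = 4.87e-06), and shares exon sequence with an antisense gene. The stress genes Gadd45b and Gadd45g were called in opposite directions, with log2 fold changes of 0.91 and -1.01, and the C/EBP factor Cebpd rose by 0.85. Like Jun and Jund, Klf6 varied little within a genotype (BCV 15.7%).

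Of 16 listed genes known to respond to AP-1, 8 had enough counts to be tested. Of these 6 were called higher and 0 lower, at a background of 15.8% higher, with a median log2 fold change of 1.48. Mmp12 and Cd44 passed the count filter through db/db alone and so had to differ, and the count is no measure of the list. Cyclin D1 (Ccnd1) had 2.53 to 7.64 CPM in WT and 102 to 207 in db/db (log2 fold change 4.87; edgeR adjusted p = 1.78e-09). The macrophage elastase Mmp12 had 0 to 0.422 CPM in WT, under the floor, and 11.1 to 21.6 in db/db. The adhesion receptor Cd44 rose by 2.91, the metallothionein Mt2 by 1.53 and the ferritin chain Fth1 by 0.46, mostly genes that macrophages and matrix cells also make. The higher macrophage and fibroblast marker sums given above moved with this list, and their part in it was not tested.

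Other stress programmes were called at or below the background of 27.7%. In the integrated stress response (16.7% called), which ATF4 leads, 1 of 12 tested genes was called higher (Psat1, log2 fold change 1.58) and 1 lower (Cebpg, -0.64). Of 11 tested heat shock genes (27.3% called), 2 were called higher, namely Hspb1 (1.38; edgeR adjusted p = 4.51e-05) and the cochaperone Bag3 (1.0; edgeR adjusted p = 4.21e-04), and Hspe1 was lower (-0.52). Hspb1 and Bag3 are abundant in muscle, whose markers were higher in db/db, and the part of muscle in these calls was not tested. The inducible chaperone Hspa1a, often raised by handling, had 0.405 to 6.01 CPM in WT and 0.887 to 5.21 in db/db.

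**Figure D5:**
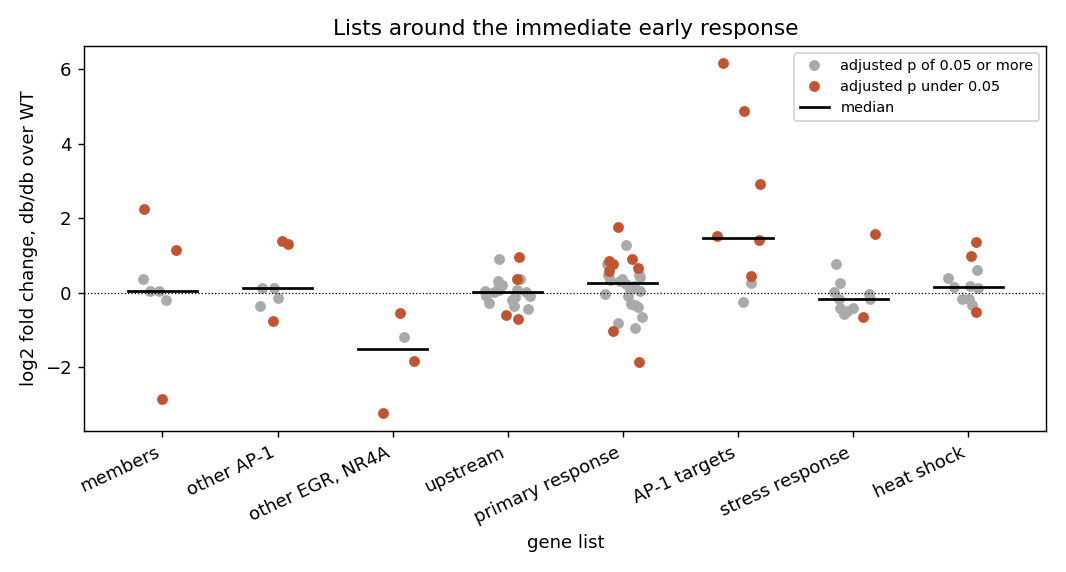
Log2 fold change of db/db over WT for the tested genes of each list (points, spread sideways for legibility), with genes at an edgeR adjusted p under 0.05 in orange, others in grey and the median of each list as a black line. The medians lie near 0 for the 7 immediate early factors (0.05) and most lists, at -1.51 for the other EGR and NR4A genes and at 1.48 for genes known to respond to AP-1, but both of these lists hold genes that passed the count filter only through the genotype in which they are high (Nr4a3, and Mmp12 and Cd44).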

How the data were processed

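Bulk RNA-seq of BAT from 4 WT and 4 db/db mice was used. Per the labels and the study's methods, the authors made single-end libraries through a commercial service (NEGEDIA Digital mRNA-seq) and deposited raw counts per Ensembl gene and normalized values on a log2 scale; the latter were not used. The methods name bbduk, STAR and HTSeq-count on mm10, whereas the submitters' processing notes name Trimmomatic, HISAT2 and DESeq2; which pipeline gave the counts could not be settled. Use of strand and of molecular identifiers is not given in the sources used here, so PCR copies may be included. The floors cover counting error only, whereas the intervals from the edgeR fit also hold the spread between mice.

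Of 31053 genes, 31011 were named from GENCODE M21 (GRCm38). Genes passing filterByExpr (minimum count 10, minimum total 15) were scaled by TMM and compared in edgeR 4.0.16 (R 4.3.3) by quasi-likelihood F tests, genotype being the only term, with Benjamini-Hochberg adjustment over all 9264 genes tested and a threshold of 0.05. Log2 CPM used a prior count of 2. The exact permutation tests were two-sided. DESeq2 1.42.0, limma-voom (limma 3.58.1), other scalings and filters, covariates, a replicate block and leaving out each library were alternatives. The edgeR step was tested on simulated data. By the study's description each replicate is 1 mouse, so p-values measure the spread between these mice.

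Named genes were the 9 factors, up to 5 genes per other list with the largest absolute log2 fold change among those called at a mean of at least 5 CPM, and the 10 genes whose deviations from the genotype means correlated most with those of the factors. Dusp1 apart, the other primary response, NR4A, EGR, AP-1 and heat shock genes given without a call were chosen after their values were seen. The factors and all lists were chosen with earlier results of these data known, and the red cell covariate, the JUN ratios and the alternatives for NR4A and EGR relatives were added after seeing the data. Dusp1, Zfp36, Cebpb, Cebpd, Cebpg, Ccnd1, Mmp12, Mt2, Hspa1a and Hspe1 share exon sequence with other annotated genes and are uncertain without strand. Replicate numbers do not pair the mice.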

Additional observations from a re-analysis of the deposited data

Results flagged for a closer look

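Of 24 groups of 4 libraries examined, 4 held a library far from the rest of its genotype, where chance gives about 1 in 20. Fos had 16.5 CPM in WT replicate 2 and 0 to 1.88 CPM in the other WT libraries. Egr1 had 133 CPM in the same library and 12.3 to 31.9 CPM in the others, and its log2 fold change without that library was 1.09 (edgeR adjusted p = 0.158). Jund reached 122 CPM in db/db replicate 4 while the other db/db libraries had 88.1 to 92.2 CPM, and its log2 fold change without that library was 1.01 (edgeR adjusted p = 0.00113). Nr4a3 had 4.09 CPM in db/db replicate 4 and 0 CPM in the others, so that its fold rests on this library.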

How the results depend on the processing

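Jund was called in all 19 alternatives. Of the 7 tested factors, 3 were called, and 1 (Jund, 1 higher and 0 lower) with DESeq2, limma-voom, the skeletal muscle level as a covariate, or at least 10 counts in every library, a filter that left 4 factors tested and removed Atf3 and Nr4a1. DESeq2 and the edgeR fit of every gene with at least 1 count tested all 9 factors. Neither called Fos or Fosb (DESeq2 adjusted p = 0.969 and 0.819). The muscle covariate left 579 genes called (424 higher, 155 lower) and 8 list genes. The muscle level (geometric mean) was 25.7 to 105 CPM in WT and 125 to 690 in db/db, without overlap. This fit thus cannot separate muscle level from genotype, and why the calls were lost was not tested. With the red cell covariate 1 factor was called higher. Leaving out each library gave 2 to 3 factors called (1 to 2 higher, 1 lower), 2236 to 2483 genes (1281 to 1435 higher, 889 to 1056 lower) and 21 to 33 list genes of 92 to 96 tested. Adjusted p over the alternatives ran from 7.47e-36 to 0.252 for Nr4a1 and from 9.45e-07 to 0.224 for Atf3, the smallest with every gene of at least 1 count in the fit, where standard errors were far smaller. Same-numbered libraries did not deviate together over all genes (correlations -0.08 to 0.05), with -0.11, 0.94, -0.34 and 0.47 over the factors alone for numbers 1 to 4. With the replicate block 3 factors, 2557 genes and 34 list genes were called. Depth limits Fosb, at most 6 counts.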
